A study of Mus musculus with 6 samples.

Results

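The Hippo pathway genes described here are 10 rows of a gene count table, taken by symbol: the transcriptional co-activators Yap1 and Wwtr1 (which encodes TAZ), the kinases Lats1 and Lats2, the DNA-binding partners Tead1 and Tead4, and the target genes Ccn1, Ccn2, Ankrd1 and Amotl2. All 10 symbols were found among the 49523 rows of the table, and all 10 passed the filter on low counts that left 17630 genes for testing. RNA sequencing was done on EO771, a mouse mammary carcinoma cell line, with 3 libraries of cells labelled cancer stem cells (CSC) and 3 libraries of cells labelled non-CSC. No genotype, treatment, time or animal is given in the labels for either group, and both groups share the line. How the CSC were separated from the other cells is not stated, nor is it stated that replicates came from different cultures. The p-values therefore reflect the spread among these 6 libraries, which may be technical.

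In the Hippo pathway, the MST kinases phosphorylate and activate the LATS kinases, which in turn phosphorylate YAP and TAZ and keep them in the cytoplasm or mark them for degradation. Unphosphorylated YAP and TAZ enter the nucleus, where they bind TEAD transcription factors and switch on genes of growth, adhesion and matrix signalling. Ccn1, Ccn2 and Ankrd1 are commonly used as readouts of this activity, and Lats2 and Amotl2 are targets that encode inhibitors of YAP, which closes a feedback loop. TAZ has been linked with stem cell traits in breast cancer cells. The regulation of YAP and TAZ acts to a large part on the proteins, which RNA counts do not measure.

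The binding sites of TEAD factors are known by the core letters GGAATG, which were searched on both strands (CATTCC on the opposite strand) in the 250 bases before the annotated start of each gene. RefSeq promoters (GRCm38.p6) were found for 7 of the 10 genes, with 9 start sites in all; Ccn2, Tead1 and Tead4 were not matched. Of the 7 genes, 5 held the core before at least 1 of their start sites. Counted by single start site, 12.6% of 32851 mouse promoters of the same length held it, so the 2 shares are not on the same unit. Ankrd1, Ccn1 and Amotl2 were listed here as target genes, so the comparison is not a test. The stretches of 30 bases around the cores are shown because they set 3 target genes beside the genes of the co-activators themselves. They are written 5′ to 3′ on the strand of the gene, with the core in capitals.
Ankrd1, distal: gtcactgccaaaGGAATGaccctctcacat
Ankrd1, proximal: gacactaagtctGGAATGaaaattcacctg
Ccn1: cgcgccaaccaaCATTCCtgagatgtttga
Amotl2: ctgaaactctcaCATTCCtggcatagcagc
Yap1: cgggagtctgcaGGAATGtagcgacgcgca
Wwtr1: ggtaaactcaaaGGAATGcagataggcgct
Ankrd1 was the only one of the 7 with 2 cores, which begin 210 and 123 bases before its start; the stretches shown are chr19:36120037-36120066 and chr19:36119950-36119979 (minus strand). Of all promoters of this length, 1.02% held 2 or more. The stretch of Ccn1 is chr3:145650071-145650100 (minus strand), with its core 103 bases before the start, and that of Amotl2 is chr9:102717727-102717756 (plus strand), with its core 65 bases before the start. Those of Yap1 and Wwtr1 are chr9:8004720-8004749 and chr3:57576029-57576058 (minus strand), with cores 141 and 136 bases before the start. The stretches of Ankrd1 and Amotl2 lie within exons of these genes in the GENCODE M21 annotation, which places their starts farther out than the RefSeq starts used here; those of Ccn1, Yap1 and Wwtr1 hold no exon base of their gene. No core was found before the starts of Lats1 and Lats2. The letters TGANTCA of the AP-1 factors and the CArG box of SRF, which were searched in the same way, were found in none of the 7 and in 6.75% and 1.47% of all promoters. A match of letters is a description, and these data do not measure binding.

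The libraries held 27099879 to 35971131 counts. Levels are given in CPM (counts scaled to a common library total) after scaling by TMM factors of 0.974 to 1.03, and changes as log2 fold changes of CSC against non-CSC with the standard error (SE) and the p-value of edgeR's quasi-likelihood test, adjusted over all 17630 genes (n = 3 libraries in each group, threshold 0.05). Of all genes tested, 66.5% differed at this threshold, 33.4% higher and 33.1% lower in CSC, so a call alone is common here. As a check of the labelled cell type, summed levels of 5 epithelial markers were 2446 to 2563 CPM in non-CSC and 3107 to 3257 CPM in CSC, mostly Krt18, Krt8 and Krt7. Krt8 and Krt7 rose, Epcam fell from 21.3 to 10.3 CPM (log2 fold change -1.05), and Krt18 and Cdh1, the latter at 0.952 and 0.752 CPM, did not pass the test. Of the markers used for mammary stem cells, Cd44 and Aldh1a1 rose by 0.17 and 0.69 and Itga6 fell by 0.78 on the log2 scale, while Prom1 was below the filter; their summed level was 2609 to 2645 CPM in non-CSC and 2381 to 2445 CPM in CSC. Among fibroblast markers, 3 of 7 were tested and all 3 rose, and the summed level was 555 to 589 CPM in non-CSC and 1196 to 1243 CPM in CSC. Nearly all of that sum was Dcn, while Lum had 0 counts and Col1a2 was at or near 0. Leukocyte markers summed to 24.4 to 26.5 CPM in non-CSC and 17.1 to 18.4 CPM in CSC, nearly all of it Cd68, with Adgre1 and Cd3e at 0. Endothelial markers summed to less than 1 CPM in every library. Whether these differences bear on the Hippo genes was not tested. In bulk RNA, fewer cells of a type and less RNA per cell cannot be told apart.

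Of the 10 genes, 5 fell in CSC (Ankrd1, Tead4, Ccn2, Wwtr1 and Ccn1), 4 rose (Lats2, Amotl2, Yap1 and Tead1), and Lats1 did not pass the test. The 9 called are to be read against 66.5% of all genes tested and against 78.8% of the 4757 genes with a mean of at least 50 CPM, a level that all 10 exceeded. Of those 4757 genes, 47.5% fell and 31.3% rose, so 5 falls and 4 rises among 10 are near the background. The median log2 fold change of the 10 was -0.13, and that of all genes tested was 0.01. Only Ankrd1 changed by 2-fold or more, as did 4.09% of all genes tested in that direction, and no member rose by as much. The CPM values of the groups did not overlap for the 9 genes called, nor for 69.3% of all genes tested.

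**Figure D1:**
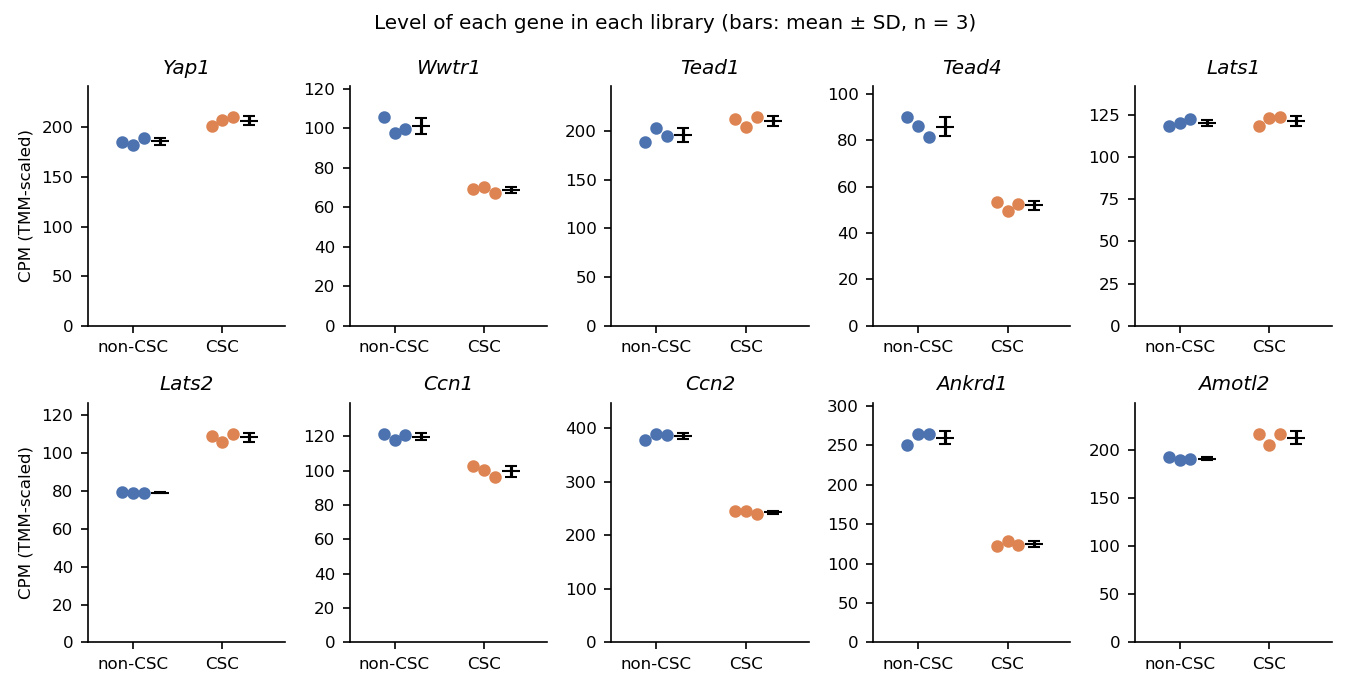
Level of each of the 10 genes in every library, in TMM-scaled CPM on axes that start at 0 (blue: non-CSC, orange: CSC, black: mean ± SD, n = 3). The groups are far apart for Ankrd1, Ccn2, Tead4 and Wwtr1, close but separate for Yap1, Tead1 and Amotl2, and overlapping for Lats1.

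The co-activators went opposite ways. Yap1 (chromosome 9, 7931999 to 8004596) was at 186, 182 and 189.7 CPM in non-CSC and at 202, 208 and 210.1 CPM in CSC. The CSC libraries were all above the non-CSC libraries, by a margin that was small beside the level. The change was 0.15 ± 0.035 on the log2 scale (SE; edgeR adjusted p = 0.000604). Wwtr1 (chromosome 3, 57455649 to 57575910) was at 106, 97.9 and 99.9 CPM in non-CSC and at 69.3, 70.1 and 67.4 CPM in CSC. All 3 CSC libraries lay well below the lowest non-CSC library, and the mean level in CSC was 68.1% of that in non-CSC. The gene fell by 0.55 on the log2 scale (SE 0.041; edgeR adjusted p = 3.36e-11).

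Read counts per kilobase of exon allow the levels of these related genes to be compared. The ratio of Wwtr1 to Yap1 on that scale was 1.10, 1.04 and 1.02 in non-CSC replicates 1 to 3 and 0.665, 0.653 and 0.621 in CSC replicates 1 to 3. In CPM, Yap1 was above Wwtr1 in every library of both groups. Per kilobase, the transcripts were near parity in non-CSC, and Yap1 was the more abundant in CSC. Where the ratio lies about 1 depends on the exon lengths used, 9.257 kilobases for Yap1 and 4.779 for Wwtr1. The change of the ratio between groups does not. Such a ratio is taken within a library and does not depend on how libraries are scaled. Of the 4 pairs compared in this way, the exact two-sided permutation test gave p = 0.1 for each, and 0.1 after adjustment over the 4, the smallest that 3 against 3 libraries allow. The pairs were chosen after the values had been seen. The sum of Yap1 and Wwtr1 was 41.2 ± 1.01 CPM per kilobase in non-CSC and 36.7 ± 0.426 in CSC (SD, n = 3 each), 89.1% of the non-CSC level, with no overlap between the groups. Unlike the change of the ratio, this percentage depends on the exon lengths used. The longer exon total of Yap1 gives its rise less weight in this sum than it would have in CPM.

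Tead4 and Tead1, the members that encode partners of YAP and TAZ on DNA, also went opposite ways. Tead4 (chromosome 6, 128224288 to 128300823) was at 89.8, 86.1 and 81.5 CPM in non-CSC and at 53.3, 49.7 and 52.6 CPM in CSC. No CSC library came near the non-CSC range. It fell by 0.73 on the log2 scale (SE 0.045; edgeR adjusted p = 1.79e-12), and 8.14% of all genes tested had a lower log2 fold change. Tead1 (chromosome 7, 112679318 to 112906807) was at 188, 203 and 195 CPM in non-CSC and at 212, 204 and 214 CPM in CSC. Its lowest CSC library was barely above its highest non-CSC library. The change of 0.10 ± 0.037 on the log2 scale (SE) had an edgeR adjusted p of 0.0176, and the call was lost without non-CSC replicate 1 (adjusted p = 0.115), non-CSC replicate 3 (0.0605), CSC replicate 1 (0.0806) or CSC replicate 3 (0.0797), and without a filter on low counts (0.0929).

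The remaining TEAD genes were also expressed. Tead2 was at 111 ± 1.16 CPM in non-CSC and 99.5 ± 0.799 CPM in CSC (SD, n = 3 each), a fall of 0.16 on the log2 scale (edgeR adjusted p = 0.000344); it is named here after its value was seen. Tead3 was lower in level, at 16.3 and 14.2 CPM, with a fall of 0.19 on the log2 scale (edgeR adjusted p = 0.0195). The call of Tead3 was lost with upper-quartile scaling (adjusted p = 0.0989), library-size scaling (0.12) and DESeq2 (0.0525), and without non-CSC replicate 1 (0.0987) or CSC replicate 2 (0.0687). Per kilobase of exon, the 4 TEAD genes summed to 63.9 ± 1.29 CPM in non-CSC and 52.8 ± 0.802 CPM in CSC (SD, n = 3 each), 82.6% of the non-CSC level. Tead4 made up 37.3% ± 1.08 of that sum in non-CSC and 27.3% ± 0.623 in CSC, and Tead1 22.5% ± 1.05 and 29.3% ± 0.268 (SD, n = 3 each). Tead2 had the largest share in CSC, 39.4% ± 0.901. The ratio of Tead4 to Tead1 per kilobase was 1.80, 1.60 and 1.58 in non-CSC replicates 1 to 3 and 0.948, 0.916 and 0.928 in CSC. As with TAZ and YAP, the order of the 2 genes on this scale was the reverse in CSC. That order depends on the exon lengths used, 3.598 kilobases for Tead4 and 13.57 for Tead1. The sum of the 4 genes, its change between groups and the shares depend on these lengths as well. In CPM, Tead1 was above Tead4 in every library of both groups.

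**Figure D2:**
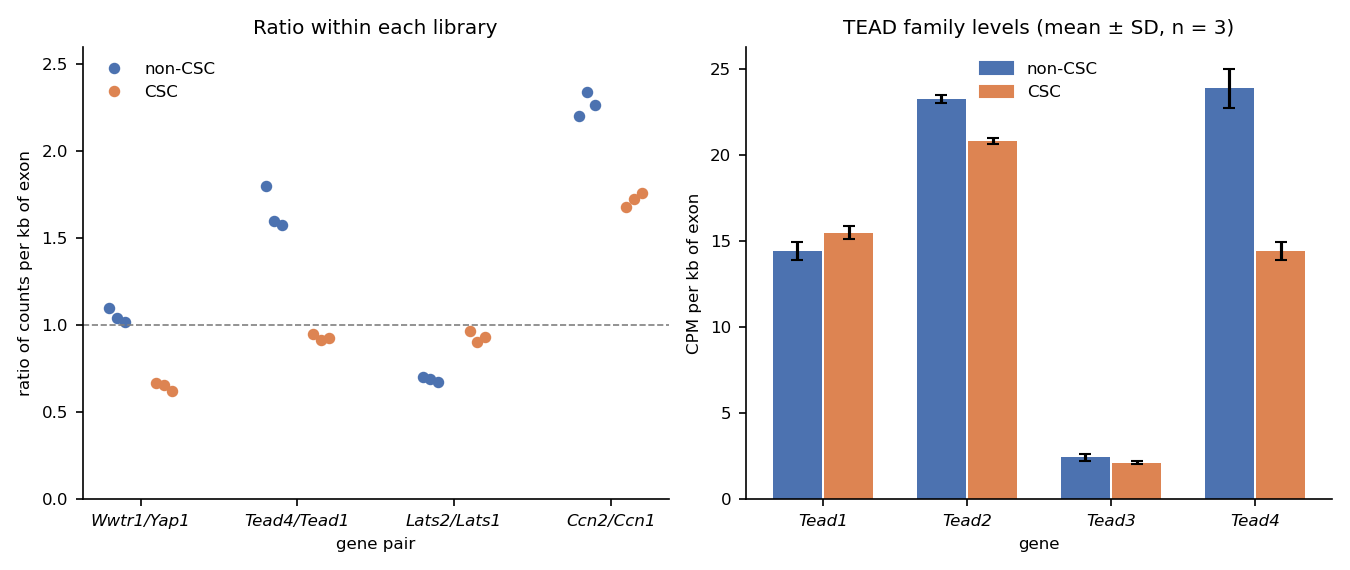
Left, the ratio of counts per kilobase of exon for 4 gene pairs in each library (blue: non-CSC, orange: CSC; dashed line: ratio of 1). Right, the levels of the 4 TEAD genes in CPM per kilobase (bars: mean ± SD, n = 3). Wwtr1/Yap1 and Tead4/Tead1 lie above 1 in every non-CSC library and below 1 in every CSC library, and Tead4 falls from 23.9 to 14.4 CPM per kilobase. The place of a ratio relative to 1 depends on the exon lengths used, and its change between groups does not.

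Of the kinases that restrain YAP and TAZ, Lats2 rose in CSC and Lats1 did not pass the test. Lats1 (chromosome 10, 7681214 to 7716460) was at 119, 120.2 and 122 CPM in non-CSC and at 118, 123 and 123 CPM in CSC. The groups overlapped, and the log2 fold change of 0.01 ± 0.036 (SE) did not pass the test (edgeR adjusted p = 0.755). Lats2 (chromosome 14, 57689662 to 57758388) was at 79.7, 79.0 and 78.9 CPM in non-CSC and at 109, 106 and 110.2 CPM in CSC. The non-CSC libraries were almost identical and the CSC libraries all higher, at 1.37 times the non-CSC mean. The rise was 0.45 ± 0.037 on the log2 scale (SE; edgeR adjusted p = 2.34e-10). In GENCODE M21, 42.4% of the exon bases of Lats2 are also covered by exons of Gm49361 on the same strand, which is not used here, so how reads were shared between them is uncertain. Of the 50-base words of the longest Lats2 transcript, 56.5% also occur in transcripts of other genes. Per kilobase of exon the ratio of Lats2 to Lats1 rose, from 0.704, 0.688 and 0.675 in non-CSC to 0.967, 0.902 and 0.935 in CSC. The ratio uses all exon bases of Lats2, the shared ones included. How near to parity the LATS transcripts are in either group therefore cannot be told. Their sum was 27.8 ± 0.191 CPM per kilobase in non-CSC and 32.2 ± 0.479 in CSC (SD, n = 3 each), 116% of the non-CSC level. This percentage also depends on the exon lengths used and on the shared bases of Lats2.

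The target genes did not move as 1 group. Ankrd1 (chromosome 19, 36111961 to 36120099), which encodes a nuclear and sarcomeric ankyrin repeat protein, was at 251, 264 and 265 CPM in non-CSC and at 122, 128 and 123 CPM in CSC. Every CSC library lay far below the lowest non-CSC library, and the mean was 47.9% of that in non-CSC. It fell by 1.06 on the log2 scale (SE 0.037; edgeR adjusted p = 4.38e-17), and 3.74% of all genes tested had a lower log2 fold change. Ccn2 (chromosome 10, 24595442 to 24598683), which encodes connective tissue growth factor, was at 379, 389.9 and 388 CPM in non-CSC and at 245, 245 and 240.2 CPM in CSC. Its CSC mean was 63.2% of the non-CSC mean. It fell by 0.66 on the log2 scale (SE 0.034; edgeR adjusted p = 6.03e-14). Of the exon bases of Ccn2, 23.2% are also covered by exons of the antisense gene Gm15270. Gm15270 itself went from 26.6 to 15.9 CPM (log2 fold change -0.74). No source used here states whether counting used the strand, so reads of the shared bases cannot be told apart.

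Ccn1 (chromosome 3, 145646976 to 145649981), which encodes the matrix protein CYR61, was at 121, 118 and 121 CPM in non-CSC and at 103, 100.2 and 96.3 CPM in CSC. The groups were separate, with a CSC mean of 83.2% of the non-CSC mean. It fell by 0.27 on the log2 scale (SE 0.037; edgeR adjusted p = 1.42e-06), less than Ccn2 did. The ratio of Ccn2 to Ccn1 per kilobase was accordingly 2.20, 2.34 and 2.27 in non-CSC and 1.68, 1.73 and 1.76 in CSC. Amotl2 (chromosome 9, 102716672 to 102733418), which encodes an angiomotin that binds and retains YAP, went the other way, from 192, 189 and 191 CPM in non-CSC to 217, 205 and 217 CPM in CSC. The rise was 0.16 ± 0.036 on the log2 scale (SE; edgeR adjusted p = 0.000439).

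Beside the promoter sequences, the 5 genes with a TEAD core went in both directions. Ankrd1, Ccn1 and Wwtr1 fell, by 1.06, 0.27 and 0.55 on the log2 scale, while Amotl2 and Yap1 rose by 0.16 and 0.15. The gene with 2 cores was the one with the largest fall, which is a description of 1 gene. Tead4 and Ccn2, the members with the next largest falls, had no matched promoter, so their cores were not counted.

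By level per kilobase of exon in non-CSC, Ccn2 was highest at 135 ± 2.00 CPM, followed by Ankrd1 at 89.96 ± 2.70, Ccn1 at 59.4 ± 1.01 and Amotl2 at 30.3 ± 0.231 (SD, n = 3 each). The targets other than Lats2 were thus above all regulators. Below them came Tead4 (23.9), Wwtr1 (21.2), Yap1 (20.1), Lats1 (16.5), Tead1 (14.4) and Lats2 (11.4 CPM per kilobase). Wwtr1 and Yap1 overlapped between libraries in this order, and the other neighbours did not. In CSC Ccn2 was again highest at 85.1 ± 1.01 CPM per kilobase, but Ccn1 (49.4) stood above Ankrd1 (43.1). Tead4 and Wwtr1, which overlapped, were now the lowest of the 10, each at 14.4 CPM per kilobase, and Lats2 and Tead1 overlapped as well. Exon length was taken over all annotated transcripts of a gene, so a gene with long, rarely used exons can be set too low. Tead1, with 13.57 kilobases, had the longest exon total of the 10. The level of Lats2 also depends on how reads of its shared bases were counted.

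Neighbouring genes were examined because stretches of chromosomes were known from earlier results of these data to differ between the groups. Over all genes tested, 33.4% rose and 33.1% fell. Members are set against the median of their neighbours, whose spread was not computed. Among the 30 tested genes adjacent to Wwtr1 on chromosome 3, 18 fell and 7 rose, with a median of -0.35 on the log2 scale; Wwtr1 lay -0.21 from it. Around Ccn1, on the same chromosome, 19 fell and 3 rose, with a median of -0.33, and Ccn1 itself at -0.27 lay 0.07 above its neighbours. Around Ankrd1 on chromosome 19 the median was -0.36, and Ankrd1 lay -0.70 from it. The neighbours of Tead4 and Ccn2 had medians of 0.04 and 0.03, close to that of all genes, and the 2 genes lay -0.77 and -0.70 from them. Those of Lats2 had a median of -0.09, with Lats2 0.54 above. The neighbours of Yap1 and Tead1 had medians of 0.26 and 0.39. Both genes, though called higher, lay below these medians, at -0.11 and -0.29 from them. For Amotl2 the neighbours had a median of 0.10 and the gene lay 0.06 above it. Those of Lats1 had a median of 0.18, with 14 higher and 6 lower, and Lats1 lay -0.17 from it. Whether the regional differences account for any change of a member was not tested.

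**Figure D3:**
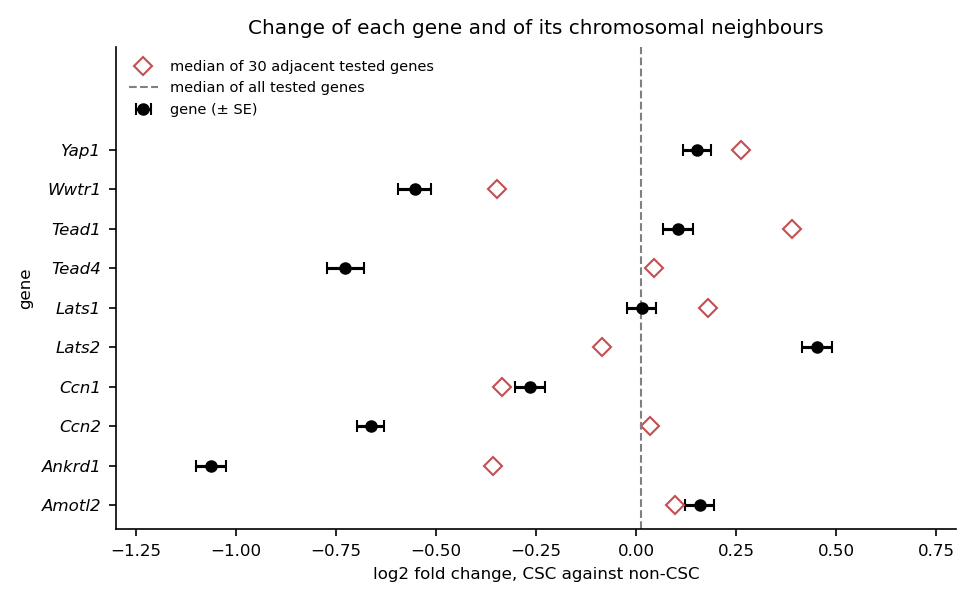
Log2 fold change of CSC against non-CSC for each of the 10 genes (black points ± SE) with the median of the 30 adjacent tested genes (red diamonds) and of all tested genes (dashed line). Tead4, Ccn2, Ankrd1 and Lats2 stand far from the median of their neighbours, while Ccn1 and Amotl2 lie beside theirs. The spread of the neighbours is not shown.

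Among the other genes of the pathway, 52 more genes were listed by role, 39 of which passed the filter. Of these 39, 14 rose and 17 fell, 79.5% in all, with a median log2 fold change of -0.06. Of the kinase cassette, 11 genes with Lats1 and Lats2 among them, 4 rose, 2 fell and 5 did not pass the test, with a median of 0.02. The share called was 54.5%, beside 66.5% of all genes tested; with upper-quartile or library-size scaling 6 rose and 2 fell. The MST kinase genes Stk3 and Stk4 were among those that did not pass, with log2 fold changes of -0.07 and 0.02 (edgeR adjusted p = 0.188 and 0.561). Stk4 passed with upper-quartile and library-size scaling (adjusted p = 0.0438 and 0.0319), and Stk3 without non-CSC replicate 1 (adjusted p = 0.0480). Mob1b, a co-activator of the LATS kinases, rose from 14.9 ± 1.23 to 27.6 ± 2.48 CPM (SD, n = 3 each), by 0.89 on the log2 scale (edgeR adjusted p = 3.91e-10). Its more abundant paralog Mob1a, at 212 and 224 CPM, did not pass (adjusted p = 0.0649), though it did under 4 of 15 alternatives, with adjusted p from 0.00192 to 0.0415. Taok2, a kinase upstream of the MST kinases, rose by 0.40 on the log2 scale. Sav1, the scaffold of the MST kinases, fell by 0.38 on the log2 scale; 25.4% of its exon bases are covered by exons of Atl1 on the opposite strand.

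Of 15 tested regulators at the membrane and cell junctions, 6 rose, 7 fell and 2 did not pass, with a median of -0.06, beside 33.4% higher, 33.1% lower and a median of 0.01 over all genes tested. Fat1, an atypical cadherin that acts upstream of the kinases, rose from 529 ± 12.4 to 1264 ± 29.99 CPM (SD, n = 3 each), with a log2 change of 1.26 ± 0.035 (SE; edgeR adjusted p = 5.01e-19). Frmd6, a FERM domain protein that promotes Hippo signalling, fell from 169 to 113 CPM, by 0.59 on the log2 scale; 17.8% of the 50-base words of its longest transcript also occur in transcripts of other genes. Amotl1 fell by 0.40 and Wwc1, which encodes KIBRA, by 0.23 on the log2 scale. Thus, of the angiomotins, Amotl2 rose and Amotl1 fell. Amot, at 1.28 CPM in non-CSC and 1.72 CPM in CSC, had a log2 fold change of 0.41, a call that was lost under DESeq2 (adjusted p = 0.168) and in several fits without 1 library; it was named after its value was seen. Nf2, which encodes Merlin and was also named afterwards, fell by 0.17 on the log2 scale. Without non-CSC replicate 2, only 3 of these genes rose, since Amot, Dlg1 and Wwc2 no longer passed.

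Of the list of YAP and TAZ with their TEAD and VGLL partners, 7 genes were tested, 2 of which rose and 5 fell, with a median of -0.19. Over all genes tested 33.4% rose and 33.1% fell, and among those of at least 50 CPM 47.5% fell. Both rises were of members already described, Yap1 and Tead1, while the members Wwtr1 and Tead4 fell. The 3 tested genes of the list that are not members, Tead2, Tead3 and Vgll4, all fell. Vgll4, which competes with YAP for binding to TEAD factors, fell from 209 ± 8.68 to 135 ± 2.39 CPM (SD, n = 3 each), by 0.63 on the log2 scale (edgeR adjusted p = 8.22e-13). Vgll1 and Vgll2 had 0 counts in every library, and Vgll3 no more than 2. Of the list, 4 genes fell with upper-quartile or library-size scaling, with DESeq2, and without non-CSC replicate 1 or CSC replicate 2. There Tead3 no longer passed. Without CSC replicate 1, CSC replicate 3, non-CSC replicate 1 or non-CSC replicate 3, and without a filter on low counts, 1 gene of the list rose, since Tead1 no longer passed.

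A wider signature of 22 YAP and TAZ targets known from human tumours, 5 of them members here, was split almost evenly by number of calls. Of 19 tested, 9 rose, 8 fell and 2 did not pass, with a median log2 fold change of -0.01, beside 33.4% higher and 33.1% lower over all genes tested. Some rises were of low level, seen afterwards: Tgfb2, Nt5e, Ptpn14 and Arhgef17 averaged 0.755, 1.62, 4.68 and 6.24 CPM. The lowest gene that fell, F3, averaged 14.1 CPM. The calls of Gadd45a, which fell, and of Arhgef17 were lost under several alternatives. That of F3 was lost with library-size scaling (edgeR adjusted p = 0.0538). Without the 5 members, 14 genes were tested, 7 higher and 5 lower in CSC, and the median was 0.11. Igfbp3, which encodes a secreted binding protein of insulin-like growth factors, fell from 612 ± 3.81 to 281 ± 10.3 CPM (SD, n = 3 each), with a log2 change of -1.12 ± 0.036 (SE; edgeR adjusted p = 9.17e-18). Dock5, a guanine nucleotide exchange factor of Rac, fell from 141 to 90.9 CPM, by 0.63 on the log2 scale. Among genes picked once their values were known, Ccdc80, which encodes a matrix protein, rose from 619 to 942 CPM, and Tgfb2, a TGF-beta ligand gene of low level here, from 0.257 ± 0.048 to 1.25 ± 0.269 CPM (SD, n = 3 each). Axl, a receptor tyrosine kinase gene on the list, was at 262 and 252 CPM and did not pass the test (edgeR adjusted p = 0.17). Myof, which encodes the membrane protein myoferlin and was also picked afterwards, fell by 0.20 on the log2 scale.

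**Figure D4:**
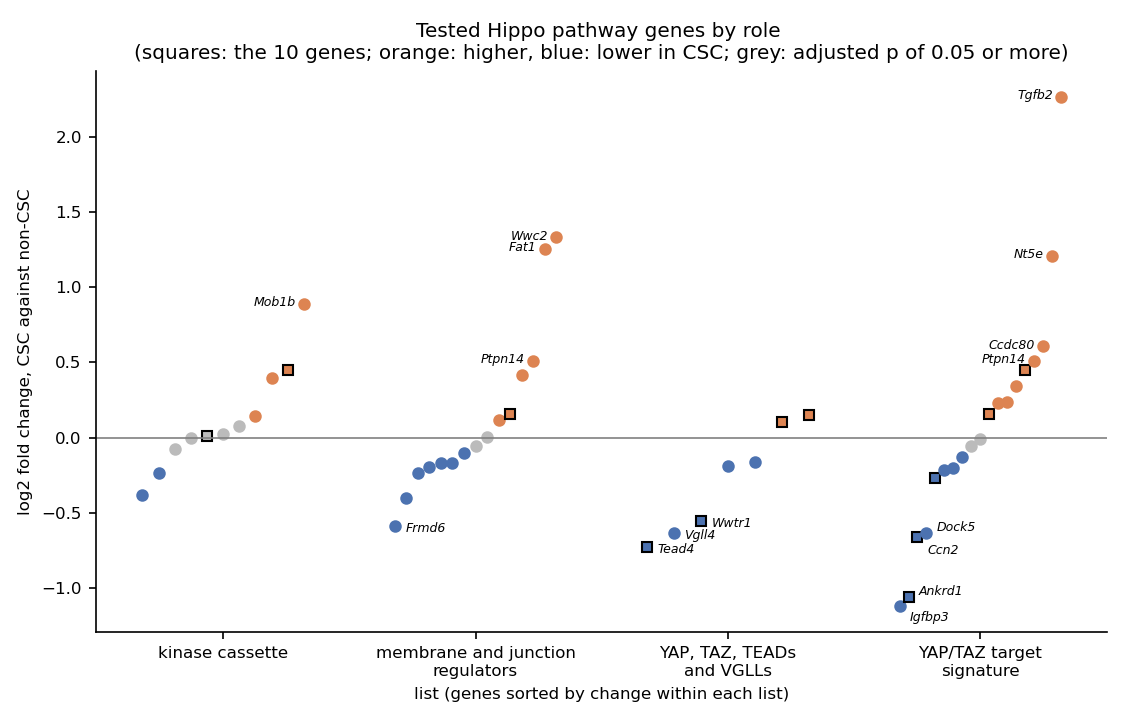
Log2 fold change of CSC against non-CSC for the tested genes of 4 pathway lists, sorted within each list (squares: members; orange: higher, blue: lower; grey: adjusted p of 0.05 or more). The target signature runs from -1.12 for Igfbp3 to 2.27 for Tgfb2 with a median near 0, while 5 of the 7 YAP, TAZ, TEAD and VGLL genes lie below 0.

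Of the CCN family of secreted matrix proteins, only Ccn1 and Ccn2 passed the filter. Ccn3, Ccn4 and Ccn6 had between 0 and 6 counts in a library, and Ccn5 had 0 in all 6 libraries. The family was therefore represented in these cells, at this depth, by its 2 members that are known YAP targets.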

How the data were processed

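Libraries of 3 CSC and 3 non-CSC samples of EO771 cells were made with a NEB kit from Trizol-extracted RNA, per the labels' protocols. The deposited values are raw read counts per gene symbol, which the authors did not normalize, with GRCm38 as the build (per the submitters' processing notes). The aligner, counter, annotation and strand setting, not given in the sources used here, could change which reads a gene receives. Columns were matched to samples by group and replicate number in the titles. Replicates of a group differed by more than sampling noise (chi-square per degree of freedom 3.21 to 7.30), and all 6 were kept. Counts of reads without molecular identifiers carry more than counting error.

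Genes were filtered with filterByExpr, scaled with TMM and tested over the whole table with edgeR 4.0.16 (quasi-likelihood, robust, no covariate, R 4.3.3), with Benjamini-Hochberg adjustment. The SE is the log2 fold change divided by the square root of F. The method was tested on simulated data. Alternatives were other scalings (RLE, upper-quartile, library size), no filter beyond 1 count, a mean of at least 50 counts, DESeq2 1.42.0, limma-voom (3.58.1), a fit that was not robust, 6 fits with 1 library left out, and a replicate block. Exon lengths, overlaps and shared 50-base words came from GENCODE M21 (GRCm38), and neighbours and promoters from RefSeq (GRCm38.p6). The 10 genes and the 5 lists were chosen with earlier results of these data known. Named are all 10 genes and, of each list, those among the 4 largest changes that passed the threshold of 0.05 and averaged 5 CPM or more; others are said to be chosen afterwards or did not pass the test.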

Additional observations from a re-analysis of the deposited data

How the results depend on the processing

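Under 15 alternatives (3 scalings, 2 filters, DESeq2, limma-voom, the robust setting off, a replicate block and 6 fits without 1 library), 8 of the 9 calls among the 10 genes kept their direction and stayed past the threshold. The exception was Tead1, whose rise did not pass without a filter on low counts (log2 fold change 0.079, adjusted p = 0.0929) and in 4 of the 6 fits that leave out a library (0.066 to 0.13 over all 6). In the same settings 1 gene in place of 2 rose in the list of YAP, TAZ, TEADs and VGLLs, 1 without the filter and 1 to 2 over the fits without a library. In the list of membrane and junction regulators 3 to 6 genes rose over those fits. In the list with the TEADs, 4 genes in place of 5 fell in the alternatives where Tead3 no longer passed. The cause was not tested. Ankrd1 ranged from -1.10 to -0.996, Ccn2 from -0.69 to -0.60, Tead4 from -0.77 to -0.66, Wwtr1 from -0.58 to -0.49, Lats2 from 0.43 to 0.52 and Lats1 from -0.01 to 0.08, where no alternative brought it past the threshold. The median of all genes tested was 0.07 with upper-quartile and 0.08 with library-size scaling. With the replicate number as a block, 9 of the 10 genes and 11680 genes in all were called, against 11732 without it. No call among the 10 changed, and of the other pathway genes Amot no longer passed (edgeR adjusted p = 0.0604). Deviations of same-numbered libraries correlated at -0.0257 to -0.0112 over genes, and no library correlated best with its own number. With 3 libraries in a group, such values cannot tell whether same-numbered samples share an origin. Fits that leave 2 libraries in a group share the spread of all 5. Depth limits genes of low level. Of the pathway genes, Wwc2, Tgfb2, Amot and Nt5e (means of 0.245, 0.755, 1.50 and 1.62 CPM) were not tested with a mean of at least 50 counts. All of them were called higher in CSC in the main fit.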
